A study of Mus musculus with 8 samples.

Results

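The 34 genes described here encode plasma proteins that hepatocytes secrete: 20 of blood coagulation and fibrinolysis and 14 of complement. They were taken as a list of gene symbols from the 55401 gene identifiers of a count table of mouse liver RNA. The list was chosen with earlier results of these data known. All 34 were found, and all 34 passed the filter on low counts that left 17669 genes for testing. The livers came from mice of the strain NOD Scid Gamma (NSG), which lack lymphocytes, and every mouse carried a subcutaneous xenograft of a human colorectal cancer line. Hosts of Colo201, given as FGF19-Hi, formed 1 group and hosts of HCT116, given as FGF19-Lo, the other. Each group had 4 libraries of polyadenylated RNA, 2 labelled male and 2 labelled female. They are Colo201 2L and 2R (labelled male), Colo201 4L and 4R (labelled female), HCT116 1L and 1R (labelled male) and HCT116 3L and 3R (labelled female). The sources used here give no ages or times after implantation.

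Several features limit the groups as a model. FGF19, an intestinal hormone that acts on hepatocytes, differed between 2 unrelated tumour lines and was not changed within either, and no library of a tumour-free host is among the 8. Whether L and R with 1 number are separate animals is not stated, so every p-value measures the spread between libraries, which may be technical. NOD mice are known to carry an Hc allele that yields no functional C5, which limits what late complement can do in such hosts. The sex labels went against the sex chromosomes in 8 of 8 libraries: in CPM (a gene's count scaled to a common library total), Xist ranged from 239 to 374 under the label male and from 0.275 to 0.833 under the label female, while Ddx3y, on the Y chromosome, was listed at 0 in the former and ranged from 37.05 to 65.7 in the latter. Sex is therefore written only as labelled. The libraries held 61347603 to 65457482 estimated counts, and Alb, the albumin gene of hepatocytes, took 7.51 to 12.02% of them.

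Coagulation runs as a chain of serine proteases. Factor VII with tissue factor acts on factors IX and X. The contact proteins factor XII, prekallikrein and kininogen lead through factor XI to factors IX and X. Factor X leads to thrombin, which turns fibrinogen into fibrin. Antithrombin, heparin cofactor II and the protein C and protein S pair hold the chain back, and plasmin dissolves the clot. Complement starts from mannose-binding lectins and their proteases, from antibody, or from spontaneous turnover of C3, and ends with C5b, C6, C7, C8 and C9, which assemble into a pore in the target membrane. Hepatocytes are the main source of most of these proteins, and many of the genes are known targets of HNF4 and C/EBP factors and of IL-6 signalling.

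The 34 genes took 4.15 to 5.19% of all estimated counts in a library. Compared per transcript length, in FPKM (the length- and depth-scaled unit of the authors), the highest were the 3 fibrinogen chains and C3, the central complement protein. Over the 8 libraries Fgg averaged 2060.1 FPKM, Fga 1696 FPKM, C3 1435 FPKM and Fgb 1311 FPKM. Plg, which encodes plasminogen, averaged 855 FPKM and Kng1, a kininogen gene, 745 FPKM. The lowest averages belonged to Pros1, the protein S gene, at 13.1 FPKM, and to Masp1, a lectin pathway protease gene, at 18.0 FPKM. Most members varied little: for the 30 genes other than C6, C8a, C8b and C9 the highest library was 1.17 to 1.85 times the lowest in CPM, with a median of 1.34. The same ratio was 35.5 for C6, 4.19 for C8a, 5.29 for C8b and 7.39 for C9. Marker genes of other cells were summed in CPM. The summed level of 10 endothelial markers was 240 to 428 CPM, and that of 10 Kupffer cell markers 195 to 564 CPM. For 9 platelet and megakaryocyte markers it was 6.09 to 8.51 CPM. The endothelial and Kupffer cell sums lay above the level of some single members, such as Pros1 at 44.8 to 74.2 CPM.

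**Figure D1:**
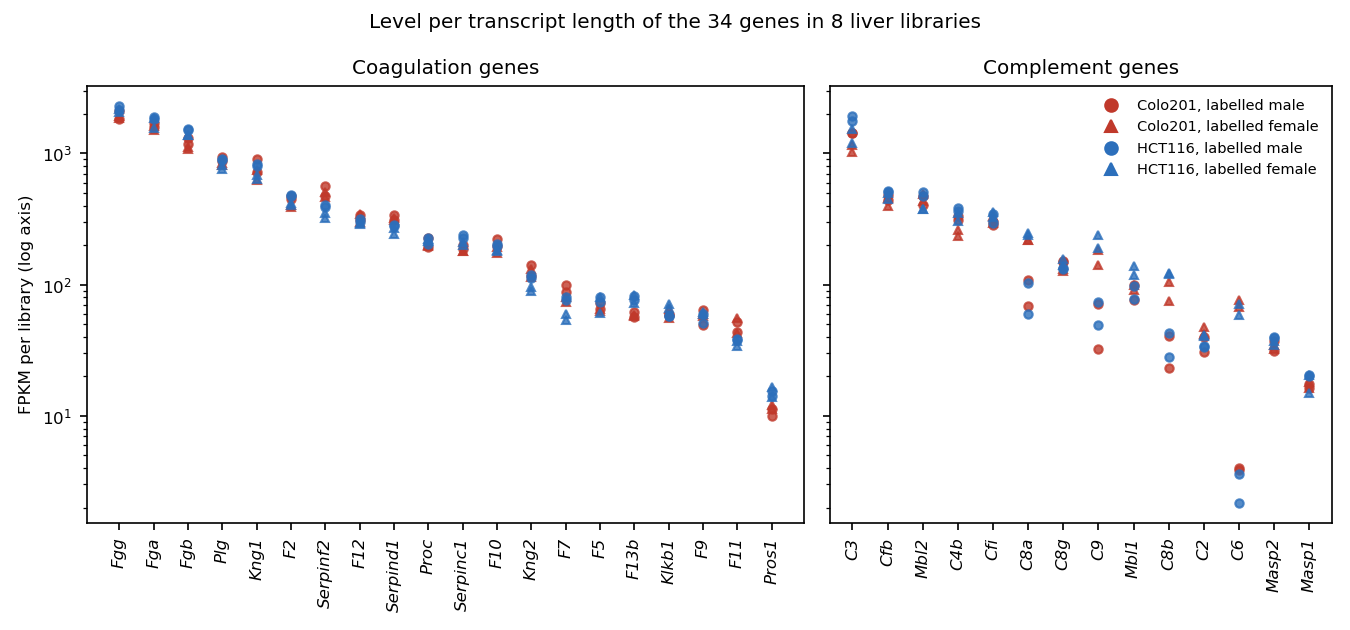
FPKM of the 20 coagulation genes (left) and 14 complement genes (right) in each of the 8 libraries, on a log axis, ordered by mean level. Colour gives the tumour line and marker shape the sex label; the points of a gene lie close together except for C6, C8a, C8b and C9, where libraries labelled female sit above those labelled male.

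The main comparison asked whether hosts of Colo201 and HCT116 differed in these genes. Of the 20 coagulation genes 3 were higher and 2 lower in Colo201 hosts at an adjusted p under 0.05 (edgeR quasi-likelihood test with sex label as covariate, Benjamini-Hochberg over all 17669 genes), and 15 did not pass. Over all tested genes 2.48% were called higher and 2.3% lower. None of the 14 complement genes passed. An unadjusted p under 0.05 was found for 2 of the 14 (14.3%), C3 and C4b, both lower, beside 21.7% of all tested genes. DESeq2, run as an alternative, called 1 of these 2, C3. It called more genes in all: 1803 of 15234 between lines, beside 439 higher and 406 lower of 17669 in edgeR. The 5 coagulation genes that passed differed by 1.23-fold to 1.42-fold in either direction, and they belong to different steps of the cascade. Serpinf2, Serpind1 and F7 rose, and F13b and Pros1 fell. The median log2 fold change was 0.01 over the coagulation genes and -0.11 over the complement genes, beside 0.00 over all genes tested. Between lines none of 10 Kupffer cell, 8 platelet or 7 neutrophil markers tested passed, while 1 of 9 cholangiocyte and 1 of 10 stellate cell markers did; the summed cholangiocyte markers were 47.4 to 94.8 CPM in Colo201 libraries and 44.8 to 54.2 CPM in HCT116 libraries, and their part in these results was not tested.

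The GENCODE annotation of GRCm38 places F7 (ENSMUSG00000031443) on chromosome 8 from 13026034 to 13035809, Serpind1 (ENSMUSG00000022766) on chromosome 16 from 17331371 to 17343575, Serpinf2 (ENSMUSG00000038224) on chromosome 11 from 75431732 to 75439591 and Pros1 (ENSMUSG00000022912) on chromosome 16 from 62854307 to 62929346. Serpinf2 encodes alpha-2-antiplasmin, the inhibitor that protects fibrin from plasmin. It stood at 1198, 1446, 1312 and 1195 CPM in the Colo201 libraries (2L, 2R, 4L and 4R in turn) and at 1024, 993, 886 and 817 CPM in the HCT116 libraries (1L, 1R, 3L and 3R). Every Colo201 library lay above every HCT116 library. The difference was 0.50 on the log2 scale (SE 0.08, adjusted p = 0.0145). Serpind1 encodes heparin cofactor II, an inhibitor of thrombin. Its levels were 744, 817, 757 and 783 CPM in the Colo201 libraries and 668, 683, 650.3 and 582 CPM in the HCT116 libraries, in the same order, again with no overlap. The log2 difference was 0.29 (SE 0.07, adjusted p = 0.0431). Serpind1 lies within Pi4ka on the opposite strand, and whether counting used strand is not given, so reads of the pair may be joined. The same limit applies to other members that overlap a protein-coding gene on the opposite strand. They include Serpinc1 with Zbtb37, Plg with Slc22a3, Masp1 with Rtp4, Masp2 with Tardbp, C2 with Zbtb12 and C8a with Gm17662. F7 encodes factor VII, the protease that starts the extrinsic route. It stood at 179, 203, 165 and 149.9 CPM in the Colo201 libraries and 154, 162, 121 and 110.2 CPM in the HCT116 libraries. Here the groups overlapped, because HCT116 1L and 1R, both labelled male, lay above Colo201 4R, labelled female. The log2 difference was 0.39 (SE 0.08, adjusted p = 0.0299) with the sex label in the model.

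F13b encodes the B subunit that carries and protects factor XIII, the enzyme that cross-links fibrin. Its levels were 156, 171, 162 and 163 CPM in the Colo201 libraries and 224, 211, 233 and 201 CPM in the HCT116 libraries, with no overlap. The log2 difference was -0.38 (SE 0.07, adjusted p = 0.0259). Pros1 encodes protein S, the cofactor of activated protein C. It was measured at 44.8, 50.6, 50.8 and 54.5 CPM in the Colo201 libraries and at 62.8, 68.7, 74.2 and 62.7 CPM in the HCT116 libraries, and the groups did not overlap. The log2 difference was -0.39 (SE 0.08, adjusted p = 0.0322). Endothelial cells are also known to make protein S, and the summed endothelial markers were 240 to 413 CPM in Colo201 libraries and 255 to 428 CPM in HCT116 libraries. Proc, the gene of protein C itself, had a log2 difference of -0.05 (adjusted p = 0.755).

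**Figure D2:**
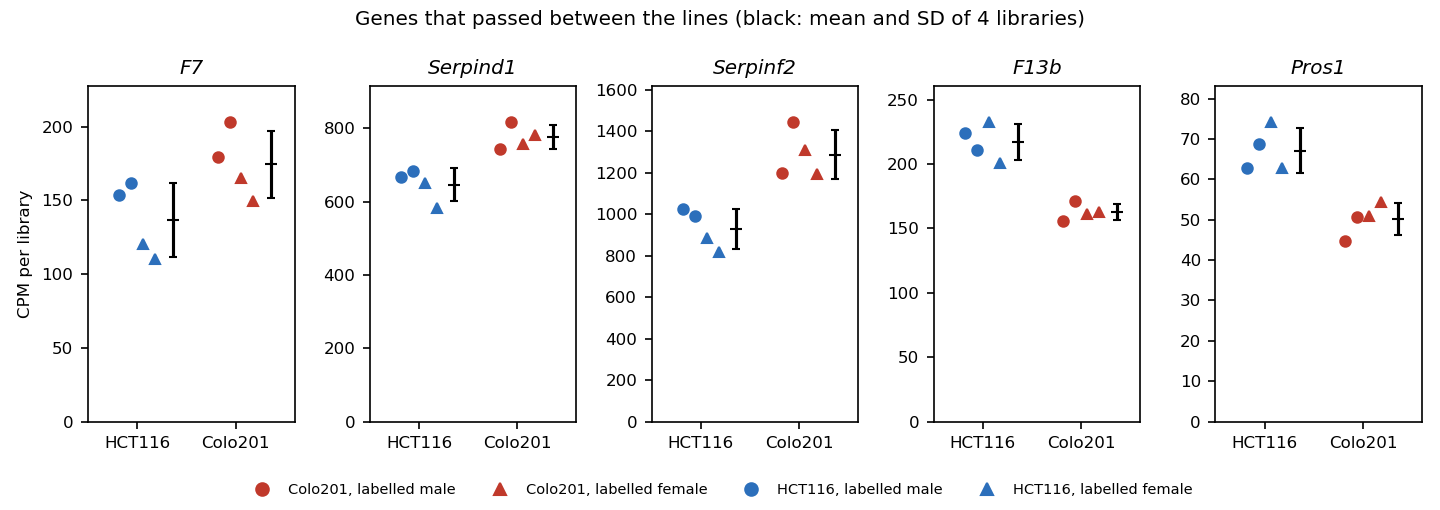
CPM of the 5 genes that passed the comparison of lines, in each library, with the mean and SD of 4 libraries per line in black; axes start at 0 and differ between panels. Serpinf2, Serpind1 and F7 are higher and F13b and Pros1 lower in Colo201 hosts, and only F7 has overlapping groups.

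Serpinf2 stayed called in 6 of the 8 fits that left out 1 library, and lost its call without HCT116 1R or HCT116 3L. F13b and Pros1 stayed called only without HCT116 3R, and F7 and Serpind1 lost their calls whichever of the 8 was left out. None of the 5 passed without the sex label in the model or with L and R summed by title number, and all 5 kept their direction in these fits. Calls over all 17669 genes fell as well, from 439 higher and 406 lower in the main fit. With 1 library left out 182 to 549 were called, without the sex label 155, and with summed libraries 3.

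Promoter sequences of 4 of these genes are shown because 2 of the genes rose and 2 fell. They are the bases before the RefSeq transcript start in GRCm38.p6, less any that fall inside the gene's span in GENCODE, written from the 5′ end on the gene's strand. The windows are chr8:13025784-13026033 (plus strand) for F7, chr1:139501457-139501701 (plus strand) for F13b, chr16:62854057-62854306 (plus strand) for Pros1 and chr11:75439592-75439751 (minus strand) for Serpinf2. Capitals mark matches, on either strand, to a CCAAT box (CCAAT) in F7 and a STAT element (TTCNNNGAA) in Pros1; F13b and Serpinf2 had no match to the 6 motifs searched.
F7: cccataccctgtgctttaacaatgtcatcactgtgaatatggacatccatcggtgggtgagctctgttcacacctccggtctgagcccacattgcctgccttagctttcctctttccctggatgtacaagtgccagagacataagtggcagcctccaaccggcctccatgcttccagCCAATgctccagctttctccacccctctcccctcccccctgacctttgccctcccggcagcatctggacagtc
F13b: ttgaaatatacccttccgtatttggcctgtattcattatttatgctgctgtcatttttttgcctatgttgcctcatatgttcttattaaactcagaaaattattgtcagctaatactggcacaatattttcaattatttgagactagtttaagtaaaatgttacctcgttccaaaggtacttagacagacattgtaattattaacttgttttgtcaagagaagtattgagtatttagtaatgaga
Pros1: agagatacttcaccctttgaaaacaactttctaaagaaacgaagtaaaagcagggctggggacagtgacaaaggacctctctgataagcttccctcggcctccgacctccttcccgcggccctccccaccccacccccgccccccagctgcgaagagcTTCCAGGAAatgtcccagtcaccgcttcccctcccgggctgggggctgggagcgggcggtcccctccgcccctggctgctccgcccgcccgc
Serpinf2: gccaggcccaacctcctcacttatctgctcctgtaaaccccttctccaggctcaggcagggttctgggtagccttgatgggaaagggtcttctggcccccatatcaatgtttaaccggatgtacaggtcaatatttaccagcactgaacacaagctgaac
The CCAAT box of F7 began 73 bases before the RefSeq start and the STAT element of Pros1 92 bases before it. Among 32851 promoter windows of 250 bases in the table, 33.85% held CCAAT and 7.02% TTCNNNGAA.

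In 26 members with an entry in the promoter table (27 windows), the STAT element occurred in 6 genes, Fga, Fgb, Pros1, F9, C8a and Masp2 (22.2% of the windows). An IL-6 element (CTGGGAA) occurred in Fgb, Fgg, F9 and Masp2, 14.8% of the windows beside 9.1% of all promoters, and in F9 and Masp2 it overlapped the STAT match. CCAAT was found in 22.2% of the windows, in F7, F12, Klkb1, Mbl1, C8b and C9. A TATA box (TATAAA) was found in 1 gene, Klkb1, or 3.7% of the windows beside 12.37% of all. No window held the HNF4 motif (CAAAGTCCA) or the C/EBP motif (TTGCGCAA), which were in 0.38% and 0.16% of all promoters. The HNF1 half-site GTTAAT was planned for the search but was left out of it. Its letters, on either strand, are in the windows printed for F13b, C8a and C8b. No searched motif was shared by all 5 genes that passed, and the matches describe letters in a window, not bound sites.

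Among the coagulation genes that missed the threshold in edgeR, F11, Fgb and Kng2 came nearest, and DESeq2 called all 3 (adjusted p = 0.0114, 0.0442 and 0.0438). Over all genes DESeq2 called 1803 of 15234 between lines, a larger share than edgeR. F11, the factor XI gene, stood at 127, 106, 106 and 138 CPM in the Colo201 libraries and 91.6, 94.5, 90.7 and 83.4 CPM in the HCT116 libraries. The lines did not overlap, and the log2 difference was 0.44 (SE 0.11, adjusted p = 0.0674). Klkb1, the prekallikrein gene next to F11 on chromosome 8 (4.7 kb apart), had a log2 difference of -0.04 (adjusted p = 0.828). In the annotation Klkb1 overlaps Gm45753, a protein-coding gene on the same strand, so its counts are uncertain. F10, the factor X gene that lies 1.5 kb from F7, was at 0.08 (adjusted p = 0.6). The FPKM ratio of F10 to F7 was 2.24 to 2.41 in Colo201 libraries and 2.48 to 3.35 in HCT116 libraries.

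The 3 fibrinogen chains are encoded side by side on chromosome 3, with 11026 bases between Fgg and Fga and 6513 bases between Fga and Fgb. Fgb was 5438, 4949, 4668 and 4529 CPM in the Colo201 libraries and 6199, 6368, 5744 and 5833 CPM in the HCT116 libraries, with no overlap in CPM, and its log2 difference was -0.27 (SE 0.08, adjusted p = 0.0793). After TMM scaling its groups overlapped. Fga was 5615, 5218, 5359 and 5012 CPM and 5999, 6258, 6127 and 5132 CPM in the same order of libraries, with a log2 difference of -0.12 (SE 0.08, adjusted p = 0.431). Fgg was 4844, 4243, 4322 and 4479 CPM and 4893, 5247, 4712 and 5031 CPM, with a log2 difference of -0.12 (SE 0.08, adjusted p = 0.452). All 3 chains had log2 differences below 0 and none passed in edgeR, while DESeq2 called Fgb. The FPKM ratio of Fgb to Fga was 0.688 to 0.765 in Colo201 libraries and 0.741 to 0.898 in HCT116 libraries.

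The kininogen genes Kng1 and Kng2 are a mouse pair 28.4 kb apart on chromosome 16, and reads may be shared between the copies. Kng2 was 347, 425, 394 and 342 CPM in the Colo201 libraries and 351, 334, 286 and 269 CPM in the HCT116 libraries, with overlap, and a log2 difference of 0.32 (SE 0.09, adjusted p = 0.0829). Kng1 was 2556, 3259.8, 2702 and 2253 CPM and 2926, 2828, 2424 and 2267 CPM, a log2 difference of 0.07 (SE 0.09, adjusted p = 0.672). The FPKM ratio of Kng1 to Kng2 was 5.54 to 6.45 in Colo201 libraries and 7.01 to 7.14 in HCT116 libraries, with no overlap between lines, although neither gene passed in edgeR and DESeq2 called Kng2 alone of the pair. Of 16 tests of such ratios (8 ratios, by line and by sex label) this was 1 of 4 whose groups did not overlap, at an exact two-sided permutation p of 0.0286, the smallest that 4 against 4 libraries allow, and an adjusted p of 0.114.

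The 9 other coagulation genes had log2 differences between -0.19 and 0.15. Serpinc1, the antithrombin gene, had the lowest at -0.19 (adjusted p = 0.126), and F12, the factor XII gene, the highest at 0.15 (adjusted p = 0.281). F5, whose product is the cofactor of activated factor X, was at -0.12, Plg at 0.08, F9 at 0.03 and F2, the prothrombin gene, at -0.01. The standard errors over all 34 genes ran from 0.06 to 0.26 on the log2 scale, so a missed threshold does not show that levels were equal.

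**Figure D3:**
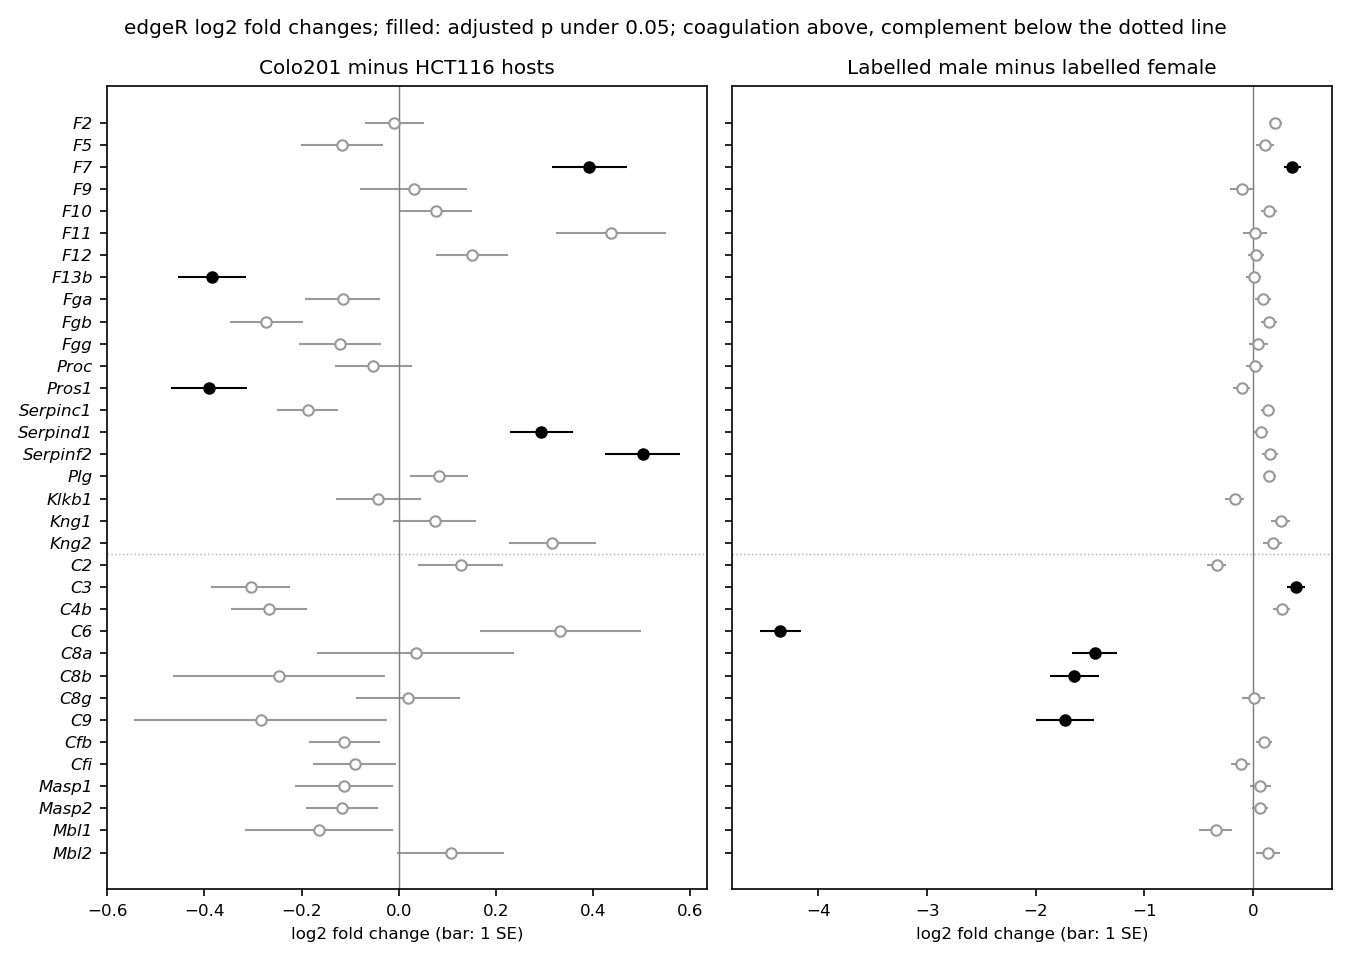
Log2 fold changes with 1 SE of the 34 genes between lines (left) and between sex labels (right), from edgeR; filled points passed at an adjusted p under 0.05. On the left 5 coagulation genes and no complement gene are filled, and on the right C6, C8a, C8b and C9 lie far below 0; the axes of the panels differ.

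In complement, C3 came closest to a line difference. C3 stood at 8044, 8074, 6589 and 5808 CPM in the Colo201 libraries and 9888, 10721, 8641 and 6836 CPM in the HCT116 libraries. The groups overlapped, because HCT116 3R lay below Colo201 2L and 2R, and the log2 difference was -0.30 (SE 0.08, adjusted p = 0.0727). Together the 14 complement genes took 1.26 to 1.42% of counts in Colo201 libraries and 1.46 to 1.77% in HCT116 libraries, with C3 the most abundant of them. These shares are of library totals without TMM scaling, and the difference between lines in them was not tested. C4b, which carries the classical and lectin pathways on to C3, had a log2 difference of -0.27 (adjusted p = 0.0928), but it is nearly identical to C4a and its counts are uncertain. Cfb, the alternative pathway protease gene, was at -0.11 and C2, a related gene 85 bases away, at 0.13; both overlap Gm20547 in the annotation. Cfi, the gene of the protease that degrades C3b, was at -0.09.

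The lectin pathway genes did not pass either. Mbl1 was 171, 133, 158 and 173 CPM in the Colo201 libraries and 134, 165, 203 and 238 CPM in the HCT116 libraries, a log2 difference of -0.16 (SE 0.15, adjusted p = 0.589). Mbl2, the second mannose-binding lectin gene, was 481, 569, 592 and 521 CPM and 605, 563, 446 and 451 CPM, a log2 difference of 0.11 (SE 0.11, adjusted p = 0.628). In both genes the libraries of the lines overlapped. Masp1 was 175, 188, 177 and 197 CPM and 215, 219, 222 and 160.3 CPM, with HCT116 3R well below the other HCT116 libraries, and a log2 difference of -0.11 (adjusted p = 0.57). Masp2, whose product cleaves C4 and C2, was 112, 134, 126 and 118 CPM and 143, 140.0, 134 and 125 CPM, a log2 difference of -0.12 (adjusted p = 0.405).

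Over the whole list, lines did not overlap in CPM for 3 higher genes (F11, Serpind1 and Serpinf2) and 3 lower ones (F13b, Fgb and Pros1), where 5.55% and 6.4% of all tested genes were separated in these directions. With TMM-scaled CPM the higher genes were the same 3, and among the lower ones Serpinc1 took the place of Fgb. Within libraries labelled male none of the 34 passed between lines, where 0.102% of all genes were called higher and 0.13% lower by edgeR; 7 of the 34 (20.6%) had an unadjusted p under 0.05, beside 13.1% of all genes. Within libraries labelled female none passed either, with a background of 0.26% higher and 0.232% lower; 11 of the 34 (32.4%) had an unadjusted p under 0.05, beside 14.1% of all genes. These contrasts rest on 2 libraries against 2. The 2 libraries of each combination of line and sex label share 1 title number and may come from 1 animal, which also limits the interaction test below. For Serpinf2 the log2 difference was 0.43 in libraries labelled male and 0.58 in those labelled female, and for F13b -0.37 and -0.40. The test of whether the line difference depended on the sex label called none of the 34 beside 0.0283% of all genes; 2 members, Mbl2 and C8g (5.88%), had an unadjusted p under 0.05, beside 4.1% of all genes, and DESeq2 called none.

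The largest differences in these genes were between sex labels. C6, C8a, C8b and C9, of the late complement pathway, were much lower in libraries labelled male, C6 by far the most, while C8g, the third chain of C8, did not pass. Of the 34 genes 4 were lower and 2 higher in libraries labelled male (edgeR with line as covariate), beside 2.06% lower and 1.96% higher over all genes. The 4 lower ones were all members of the terminal pathway, and the 2 higher ones were F7 and C3. Markers of other cells also moved with the label: 10 of 10 endothelial and 10 of 10 Kupffer cell markers had log2 differences above 0 for labelled male, and 6 and 2 of them passed. Summed endothelial markers ranged from 350.0 to 428 CPM under the label male and from 240 to 307 CPM under the label female, and Kupffer cell markers from 452 to 564 CPM and from 195 to 373 CPM. All 7 neutrophil markers tested had log2 differences above 0 and none passed, 4 having an unadjusted p under 0.05, with sums of 4.27 to 7.04 CPM under the label male and 1.23 to 3.53 CPM under the label female. Alb took 10.7 to 12.02% of counts under the label male and 7.51 to 9.41% under the label female. Their part in the differences below was not tested, and in bulk liver fewer cells of a type and less RNA per cell cannot be told apart.

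C6, which joins C5b to start the pore, was 15.7, 15.0, 8.39 and 13.9 CPM in Colo201 2L and 2R and HCT116 1L and 1R, labelled male, and 265, 298, 229 and 278 CPM in Colo201 4L and 4R and HCT116 3L and 3R, labelled female. The labelled female mean was 20.2 times the labelled male mean, and the log2 difference, labelled male minus labelled female, was -4.35 (SE 0.19, adjusted p = 1.06e-05). C9, which forms the ring of the pore, was 199, 91.0, 136 and 205 CPM and 395, 515, 532 and 673 CPM in the same order. Its log2 difference was -1.73 (SE 0.27, adjusted p = 0.0107). Neither gene had overlapping groups, although C9 varied within the label, from 91.0 CPM in Colo201 2R to 205 CPM in HCT116 1R.

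In GRCm38, C6 (ENSMUSG00000022181) on chromosome 15 from 4727175 to 4814967 and C9 (ENSMUSG00000022149) on chromosome 15 from 6445327 to 6498751 lie 1630.4 kb apart, and C8a (ENSMUSG00000035031) on chromosome 4 from 104815679 to 104876398 and C8b (ENSMUSG00000029656) on chromosome 4 from 104766317 to 104804548 lie side by side. C8 is built of an alpha, a beta and a gamma chain, encoded by C8a and C8b, 11.1 kb apart, and by C8g on chromosome 2. C8a was 427, 273, 235 and 404 CPM in libraries labelled male and 875, 879.9, 944 and 984 CPM in those labelled female. The log2 difference was -1.46 (SE 0.21, adjusted p = 0.00736). C8b was 112, 64.9, 77.8 and 119 CPM and 212, 296, 334 and 343 CPM, a log2 difference of -1.65 (SE 0.22, adjusted p = 0.00603). C8g was 246, 243, 212 and 219 CPM and 215, 209.7, 229.9 and 258 CPM, a log2 difference of 0.01 (SE 0.11, adjusted p = 0.982). The FPKM ratio of C8g to C8a was 1.32 to 2.20 in libraries labelled male and 0.580 to 0.639 in those labelled female, without overlap (exact two-sided permutation p = 0.0286, adjusted p = 0.114 over the same 16 tests). C8g overlaps Fbxw5 on the opposite strand. C8b and C9 had the same order of all 8 libraries, from Colo201 2R, the lowest, through HCT116 1L, Colo201 2L, HCT116 1R, Colo201 4L, Colo201 4R and HCT116 3L to HCT116 3R, the highest. The calls for C6, C8a, C8b and C9 held under all 17 alternative fits. Between lines none of the 5 passed, with log2 differences of 0.33 for C6, 0.04 for C8a, -0.25 for C8b, -0.28 for C9 and 0.02 for C8g.

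**Figure D4:**
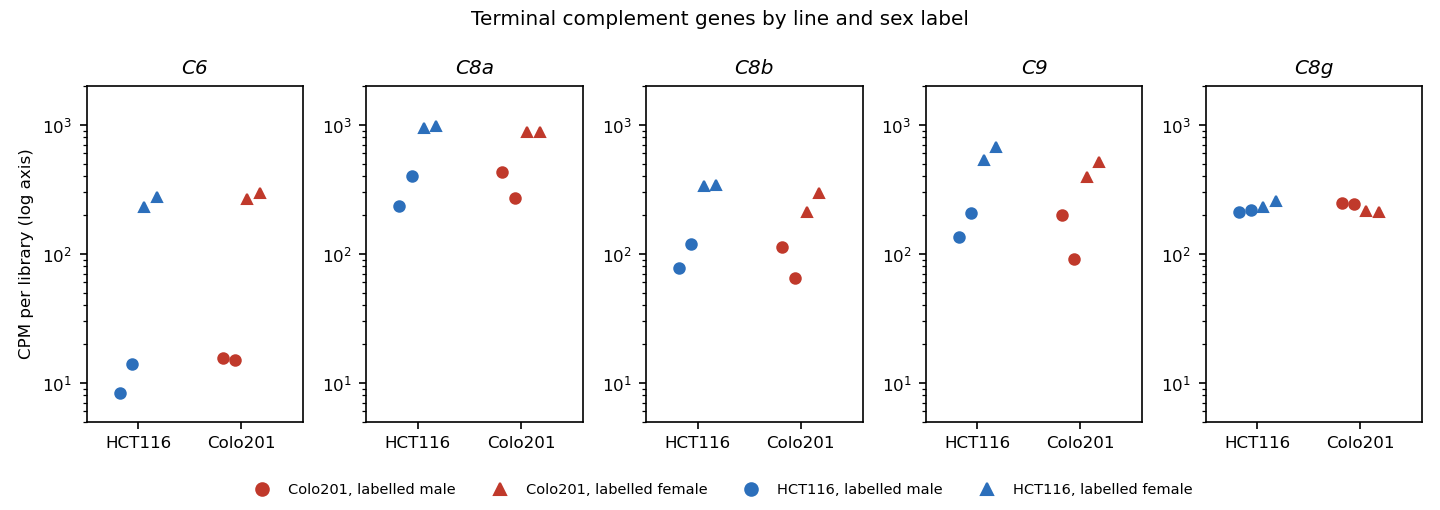
CPM of the terminal complement genes in each library by line, on a log axis shared by the panels; circles are labelled male and triangles labelled female. In C6, C8a, C8b and C9 the triangles lie above the circles in both lines, and in C8g they do not separate.

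The promoter windows of these 5 genes are shown because 4 of them moved together by sex label and C8g did not pass. They are chr15:4726960-4727174 (plus strand) for C6, chr15:6445096-6445326 (plus strand) for C9, chr4:104876399-104876648 (minus strand) for C8a, chr4:104766067-104766316 (plus strand) for C8b and chr2:25501720-25501969 (minus strand) for C8g, from RefSeq in GRCm38.p6 as above. Capitals mark the STAT element of C8a, the CCAAT box of C8b and the 2 CCAAT boxes of C9.
C6: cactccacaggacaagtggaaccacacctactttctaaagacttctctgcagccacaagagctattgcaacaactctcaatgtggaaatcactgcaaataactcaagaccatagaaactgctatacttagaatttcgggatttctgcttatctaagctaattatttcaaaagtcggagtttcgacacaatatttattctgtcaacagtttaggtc
C9: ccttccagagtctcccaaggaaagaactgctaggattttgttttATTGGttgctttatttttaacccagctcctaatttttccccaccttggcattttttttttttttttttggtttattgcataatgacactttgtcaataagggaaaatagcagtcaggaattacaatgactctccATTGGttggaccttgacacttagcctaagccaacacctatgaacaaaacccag
C8a: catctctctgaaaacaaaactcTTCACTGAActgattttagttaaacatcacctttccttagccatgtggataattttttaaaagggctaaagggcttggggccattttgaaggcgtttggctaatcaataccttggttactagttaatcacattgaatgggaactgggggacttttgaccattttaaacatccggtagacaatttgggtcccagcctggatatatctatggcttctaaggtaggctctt
C8b: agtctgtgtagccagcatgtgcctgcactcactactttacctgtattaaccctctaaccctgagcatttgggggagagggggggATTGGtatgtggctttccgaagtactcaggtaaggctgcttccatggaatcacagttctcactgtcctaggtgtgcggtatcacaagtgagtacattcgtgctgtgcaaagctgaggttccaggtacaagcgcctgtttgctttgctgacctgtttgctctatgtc
C8g: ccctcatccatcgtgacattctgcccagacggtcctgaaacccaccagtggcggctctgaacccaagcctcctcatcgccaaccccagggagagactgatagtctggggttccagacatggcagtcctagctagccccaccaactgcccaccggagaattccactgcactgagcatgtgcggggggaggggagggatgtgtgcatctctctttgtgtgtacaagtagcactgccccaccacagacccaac
C8b and C9 each held CCAAT, 166 bases before the RefSeq start in C8b and 206 and 72 bases before it in C9, and the STAT element of C8a began 228 bases before its start. C6 and C8g had no match to the motifs searched. No motif of the search was shared by the 4 genes that differed.

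Of the other members, F7 was 0.36 higher on the log2 scale in libraries labelled male (SE 0.08, adjusted p = 0.0368) and C3 was 0.40 higher (SE 0.08, adjusted p = 0.0346). Both are less than 1.5-fold differences, and their groups overlapped. With 1 library left out, F7 kept this call only without Colo201 4L, and C3 only without Colo201 4L or HCT116 3L. In CPM, libraries did not overlap by label for 3 higher genes (F2, F10 and Plg) and 5 lower genes (C2, C6, C8a, C8b and C9), where 4.69% and 4.71% of all tested genes were separated in these directions. With TMM-scaled CPM only F2 was left among the higher ones. C2 had a log2 difference of -0.33 (adjusted p = 0.0794). Among the 20 coagulation genes 17 had log2 differences above 0 for labelled male and 1 passed, where 8812 of all 17669 tested genes were above 0. The median of the 20 was 0.10, beside 0.00 over all genes tested.

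Other genes of both systems were read from lists that hold no member. Of 29 other coagulation genes tested, 3 rose in Colo201 hosts and none fell, where 2.48% of all tested genes rose and 2.3% fell. An unadjusted p under 0.05 was found for 9 (31%), 2 of them below 0, beside 21.7% of all genes. The 3 that rose included Anxa2 and S100a10, the pair of proteins that hold plasminogen and its activator on cell surfaces. The third was Vwf, von Willebrand factor, which endothelium makes. Anxa2 had a log2 difference of 1.08 (SE 0.10, adjusted p = 0.0022), S100a10 of 0.66 (SE 0.15, adjusted p = 0.0439) and Vwf of 0.82 (SE 0.19, adjusted p = 0.0477). None of the 10 endothelial markers passed between lines, and 1 had an unadjusted p under 0.05. Vwf was low, at 5.13, 5.62, 4.12 and 2.82 CPM in the Colo201 libraries and 3.72, 3.37, 1.997 and 1.53 CPM in the HCT116 libraries, and its groups overlapped.

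Of 29 other complement genes tested, 1 rose and 2 fell in Colo201 hosts, where 2.48% of all tested genes rose and 2.3% fell. The rise was in Clu, clusterin, which binds late complement complexes, at 1482, 1516, 2315 and 1921 CPM in the Colo201 libraries and 1065, 1282, 1256 and 1321 CPM in the HCT116 libraries, with no overlap (log2 difference 0.57, SE 0.11, adjusted p = 0.03). Hc, the C5 gene, was 142, 180.3, 124 and 207 CPM in the Colo201 libraries and 235, 257, 271 and 240.3 CPM in the HCT116 libraries, a log2 difference of -0.59 (SE 0.15, adjusted p = 0.0565). C7 was too low to be tested.

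By sex label, 1.96% of all tested genes were called higher and 2.06% lower in libraries labelled male. Of the 29 other complement genes tested, 2 were higher and 5 lower. C4a had the largest difference of these, at 59.8, 46.0, 60.7 and 58.2 CPM in libraries labelled male and 368, 296, 728 and 697 CPM in those labelled female (log2 difference -3.12, SE 0.22, adjusted p = 0.000204). Its near copy C4b, a member, was at 0.27 (adjusted p = 0.108), and how reads were divided between the copies is not given. C4bp, the C4b-binding protein gene, was at -0.72 (adjusted p = 0.0125). The higher ones were Cfp, properdin, at 1.14 (adjusted p = 0.0178) and C1qa at 0.66 (adjusted p = 0.0439), both known as products of myeloid cells.

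For the 3 lists that follow, 2.48% of all tested genes rose and 2.3% fell in Colo201 hosts. Of 24 tested regulators of hepatocyte secreted protein genes, none rose and 5 fell. An unadjusted p under 0.05 was found for 8 (33.3%), 2 of them above 0, beside 21.7% of all genes. The 5 that fell included Esr1, the oestrogen receptor alpha gene (-1.19, adjusted p = 0.00665), Il6ra, the IL-6 receptor gene (-0.89, adjusted p = 0.0112), and Nr1h4, the FXR gene (-0.46, adjusted p = 0.0131), all log2 differences. Hnf4a did not pass at -0.16 (adjusted p = 0.244). Of 12 other hepatocyte genes 3 rose, namely Apoa1, apolipoprotein A-I (0.47), Trf, transferrin (0.51), and Ahsg, fetuin A (0.37), and none fell. Of 18 acute phase genes 1 rose, Lcn2 (1.78, adjusted p = 0.0157), and 1 fell, Orm2 (-1.47, adjusted p = 0.0272), while Saa1, the serum amyloid gene, was at -0.54 (adjusted p = 0.189). For comparison, the 29 coagulation and complement members that did not pass between lines lay between -0.30 and 0.44.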

How the data were processed

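Per the labels' protocols, TRIzol RNA from livers held in RNALater went into TruSeq stranded mRNA libraries. Reads were handled with HISAT2 and StringTie on GRCm38 (mm10), per the submitters' processing notes. The sources used here do not give versions, annotation or strand setting. The deposited table holds an estimated count per gene as whole numbers, used as they stand, and the authors' FPKM table, rounded to hundredths, served for levels between genes and in alternatives. Of 55401 identifiers 55141 matched a symbol in GENCODE vM21; rows without one held 0.0216 to 0.0343% of counts.

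CPM were counts over library totals. Counts were scaled by TMM (factors 0.946 to 1.04), filtered by filterByExpr over the 4 combinations of line and sex label, and tested with edgeR 4.0.16 in R 4.3.3 (quasi-likelihood, two-sided, 5 residual degrees of freedom, Benjamini-Hochberg, threshold 0.05). Lines were compared with sex label as covariate, and sex labels with line as covariate; within-label contrasts and the interaction came from 4 group means. The scripts were tested on simulated data. Alternatives were other scalings, no filter, limma 3.58.1, DESeq2 1.42.0, log2 FPKM with a pseudocount of 1 or 0.1, no covariate, libraries summed by title number and each library left out.

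The members and all lists were chosen with earlier results of these data known. Members were described in full where they passed by line, passed by sex label at 1.5-fold or more, were among the 4 nearest to passing by line, or are chains or paralogs of 1 protein; from other lists, up to 4 genes passing by line. Genes of other lists named by sex label, those named without passing, the ratios tested and the STAT element were chosen after values were seen. Promoters and their coordinates came from RefSeq (GRCm38.p6), which held 26 of the 34 members. Some genes of the other lists are not reported here.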

Additional observations from a re-analysis of the deposited data

Results flagged for a closer look

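In 136 groups of 4 libraries checked (34 genes, by line and by sex label), 1 library stood apart from the other 3. Masp1, a protease gene of the lectin pathway, was at 160.3 CPM in HCT116 3R and at 215.0 to 222.0 CPM in the other HCT116 libraries. The gap to the nearest library was 0.886 of the range of the group. Chance flags about 1 in 20 such groups.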

How the results depend on the processing

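Members higher in Colo201 hosts, 3 in the main analysis, numbered 2 without a filter, where Serpind1 lost its call, 1 with log2 FPKM at either pseudocount, 0 without the covariate, 0 with libraries summed by title number (where 3 of 17669 genes passed in all), 5 with DESeq2, and 0 to 1 when a library was left out. Members lower in Colo201 hosts, 2 in the main analysis, numbered 0 without the covariate, 0 with summed libraries, 4 with DESeq2, and 0 to 2 when a library was left out. The calls over all genes changed too. Between lines, 439 higher and 406 lower of 17669 genes were called in the main analysis. Without the covariate 155 were called, and with a library left out 182 to 549. DESeq2 called 1803 of 15234, the fit without a filter 612 of 25696, and log2 FPKM 549 or 616 of 19750. Members higher in libraries labelled male, 2 in the main analysis, numbered 1 without a filter, 1 with log2 FPKM at either pseudocount, 0 without the covariate, 0 with summed libraries, and 0 to 2 when a library was left out. By sex label, 346 higher and 364 lower of 17669 genes were called in the main analysis. Without the covariate 340 were called, with summed libraries 141, and with a library left out 314 to 639. DESeq2 called 1483 of 17725, the fit without a filter 632 of 25696, and log2 FPKM 593 or 630 of 19750. Members lower in libraries labelled male numbered 4 in all of these fits except DESeq2, which gave 5, and the interaction gave 0 in the fits run for it, which were RLE scaling, DESeq2 and each library left out. The 9 members followed by line (the 5 that passed, F11, C3, Fgb and Kng2) and the 6 followed by sex label (those that passed) kept their direction. The leave-one-out and summed fits held fewer libraries, and the cause of the lost and added calls was not tested. Log2 differences by line ranged over the alternatives from 0.45 to 0.55 for Serpinf2 and from -0.42 to -0.36 for F13b, and that by sex label from -4.47 to -3.99 for C6. No paired analysis was possible because the lines share no replicate number.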
